A study of Homo sapiens with 4 samples.

Results

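Expression of 10 SOX transcription factors was followed through the expression arrays of Sp1-silenced and CoCl2-exposed OVSAYO cells: SOX2, SOX4, SOX5, SOX6, SOX9, SOX11, SOX12, SOX13, SOX15 and SOX17. They are represented by every array probe whose RefSeq accession maps to one of these symbols, which gave 17 probes for 10 genes among 41000 probes and 17721 named genes. The genes were picked with ratios from these same arrays in view, so all of the values are given as descriptions and none is tested.

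OVSAYO is a cell line established from ovarian clear cell carcinoma. Each of 4 arrays held the RNA of 1 condition. NS-si cells were transfected with a non-silencing control siRNA and Sp1-si cells with siRNA against the transcription factor Sp1, both with a lipid reagent. The labels give 40 h of culture after transfection, and a legend of the study gives a shorter time. NS-si → CoCl2 and Sp1-si → CoCl2 cells were then exposed to 0.5 mM CoCl2, a cobalt salt that stabilises hypoxia-inducible factors in air, for 4 h. All groups share the line and a transfection, there is 1 array per condition and no replicate, and the 4 arrays lie on 1 slide. The labels do not name a clone or a passage.

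SOX proteins bind DNA through an HMG box, a domain that bends the double helix, and they usually act beside a partner factor. They are sorted into groups by sequence: SOX2 is of the B1 group and maintains stem cell identity, SOX4, SOX11 and SOX12 form the C group of progenitor activators, and SOX5, SOX6 and SOX13 form the D group, which has no activation domain of its own. SOX9 of the E group drives cartilage and testis development and is found in many epithelial progenitors, SOX17 of the F group specifies endoderm and marks tumours of Müllerian origin, and SOX15 of the G group is found in muscle and placental progenitors.

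The Sp1 transcription factor binds GC boxes, so the DNA before the start sites of 4 members is shown, chosen among those with 1 start entry after their values were seen. Without CoCl2, SOX2 and SOX5 had lower signals in Sp1-si cells than NS-si cells, and SOX4 and SOX12 had higher ones. With CoCl2 the SOX2 probes had ratios of opposite sign, and so did the measured SOX5 probes. The 250 bases upstream of the RefSeq start (build GRCh38.p14) lie at chr3:181711675-181711924 on the plus strand for SOX2, at chr12:24562492-24562741 on the minus strand for SOX5, at chr6:21593501-21593750 on the plus strand for SOX4 and at chr20:325302-325551 on the plus strand for SOX12. Each is printed 5′ to 3′ along the gene, and capitals mark the letters GGGCGG of a GC box on either strand.
SOX2: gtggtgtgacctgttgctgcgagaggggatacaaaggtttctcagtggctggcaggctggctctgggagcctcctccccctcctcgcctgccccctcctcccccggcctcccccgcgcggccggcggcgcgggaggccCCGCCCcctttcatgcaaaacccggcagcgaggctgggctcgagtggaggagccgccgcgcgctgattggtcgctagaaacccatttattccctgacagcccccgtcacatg
SOX5: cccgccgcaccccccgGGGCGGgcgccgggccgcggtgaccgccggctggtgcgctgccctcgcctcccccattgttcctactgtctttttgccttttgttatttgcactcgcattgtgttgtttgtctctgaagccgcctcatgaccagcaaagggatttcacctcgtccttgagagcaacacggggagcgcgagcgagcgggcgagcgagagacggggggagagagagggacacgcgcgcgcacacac
SOX4: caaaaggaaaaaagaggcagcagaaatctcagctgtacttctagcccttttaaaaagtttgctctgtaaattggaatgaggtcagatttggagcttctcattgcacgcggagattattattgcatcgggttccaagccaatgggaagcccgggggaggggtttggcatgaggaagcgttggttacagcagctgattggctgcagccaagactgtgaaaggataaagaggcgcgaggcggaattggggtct
SOX12: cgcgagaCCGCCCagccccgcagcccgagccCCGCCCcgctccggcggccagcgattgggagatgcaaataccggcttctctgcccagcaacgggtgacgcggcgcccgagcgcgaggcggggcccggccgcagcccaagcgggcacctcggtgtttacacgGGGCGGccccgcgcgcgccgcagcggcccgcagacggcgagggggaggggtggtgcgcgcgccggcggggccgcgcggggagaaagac
RefSeq start entries of 6 of the 10 members were used, and none of SOX9, SOX11, SOX15 and SOX17. Member entries on 1 chromosome were left out before this count, so it does not state what RefSeq holds. The SOX2 and SOX5 windows each hold 1 GC box, the SOX12 window 3 and the SOX4 window 0. SOX6, whose signal was also lower in Sp1-si cells, has 5 start entries, of which 4 hold 0 GC boxes and 1 holds 1, and the SOX13 window holds 1. Of 35116 upstream windows of this length, 42.6% hold at least 1 GC box and 13.9% hold 3 or more. The SOX4 and SOX5 windows each hold 1 hypoxia response core (ACGTG or GCGTG, both strands), and 43.2% of all windows hold at least 1. The SOX5 window holds 2 and the SOX2 window 1 SOX core (ACAATG or ACAAAG, both strands), a match present in 21.2% of windows. Overlapping matches were each counted. These are counts of letters and not of bound sites.

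The signals printed are processed array intensities before any scaling between arrays, and ratios are differences of log2 intensity after the 75th percentile of each array was subtracted. That percentile lay between 977 and 1285, and 33081 to 34542 spots of an array were well above background. The SP1 probe, with 10 spots, read 553 in NS-si cells and 39.2 after silencing, and 429 and 38.7 after CoCl2. The 4 probes of VEGFA, a hypoxia target, had log2 CoCl2 ratios of 1.92 to 2.43 in NS-si cells and 1.65 to 2.86 after silencing. All 4 were lower in Sp1-si than NS-si cells, at -2.26 to -1.20 without CoCl2 and -2.25 to -1.29 with it. The 8 markers of clear cell carcinoma and epithelium were well above background on all 4 arrays. Of them 1, NAPSA, an aspartic peptidase of clear cell tumours, was at least 2-fold lower after Sp1 silencing, on both probes. NAPSA read 5131 and 984 without CoCl2 and 3835 and 965 with it on the first probe, with log2 silencing ratios of -2.33 and -2.39, and the ratio without CoCl2 was -2.34 on the other probe. PTPRC, PECAM1 and CDH5, which define leukocytes and endothelium, were well above background on none. COL1A1 was matched to no probe by RefSeq accession. The 3 fibroblast markers with a matched probe had a summed signal of 872 in NS-si cells, 374 after Sp1 silencing, 648 after CoCl2 and 440 after both. Their silencing ratios without CoCl2 were -3.10 for COL1A2, -1.08 for LUM and -0.88 for DCN. After normexp background correction these were -0.96, -0.89 and -0.25. The other COL1A2 probe was well above background on no array. CD68, CD3E and VWF, the remaining leukocyte and endothelial markers, were well above background on all 4 arrays, and the leukocyte markers summed to 975, 464, 1064 and 732 in the same order. The CD68 silencing ratio was -1.48 without CoCl2. The part of NAPSA and of these markers in the SOX ratios was not tested. In RNA of a whole culture, fewer cells expressing a gene and less RNA per cell cannot be told apart.

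Of the 17 SOX probes, 11 were well above background on all 4 arrays, 4 on some of them and 2 on none. Each SOX probe has 1 spot, so the SD given with a ratio is the median SD between spots of the 25 repeatedly spotted probes nearest in signal. It covers the array surface and not the cultures. The comparisons share arrays, so their ratios are not independent of each other. Where a probe was well above background on only 1 side, the ratio is a bound against the lowest signal that was well above background on the dim array. A probe counts as higher or lower when its ratio or bound is at least 2-fold.

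CoCl2 was followed by lower SOX2, SOX5 and SOX6 signals and higher SOX9 and SOX12 signals in NS-si cells. Of 14 SOX probes that could be compared, 2 were at least 2-fold higher, against 4.53% of all probes, and 4 were at least 2-fold lower, against 4.34%. In Sp1-si cells, 2 of 14 were higher (SOX9 and SOX11, background 3.72%) and 2 were lower (SOX5 and SOX17, background 6.17%). Without CoCl2, 1 of 15 probes was higher in Sp1-si cells than NS-si cells (SOX12, background 5.5%) and 4 were lower (2 of SOX5, and those of SOX6 and SOX9, background 5.88%). With CoCl2, 2 of 14 were higher in Sp1-si cells (SOX5 and SOX11, background 6.31%) and 2 were lower (SOX9 and SOX17, background 9.64%). Without scaling between arrays, the split of higher to lower probes was 1 to 6 for CoCl2 in NS-si cells, 3 to 2 for CoCl2 after silencing and 5 to 1 between the siRNA groups with CoCl2. Because the genes were picked with these ratios known, nothing is read from the distance between members and background. The median log2 ratio of the SOX probes measured on both sides was -0.37 for CoCl2 in NS-si cells (12 probes) and 0.17 in Sp1-si cells (13 probes), against 0.02 and -0.01 over all probes. For Sp1-si over NS-si cells it was -0.36 without and 0.11 with CoCl2 (12 probes each), against -0.02 and -0.06.

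**Figure D1:**
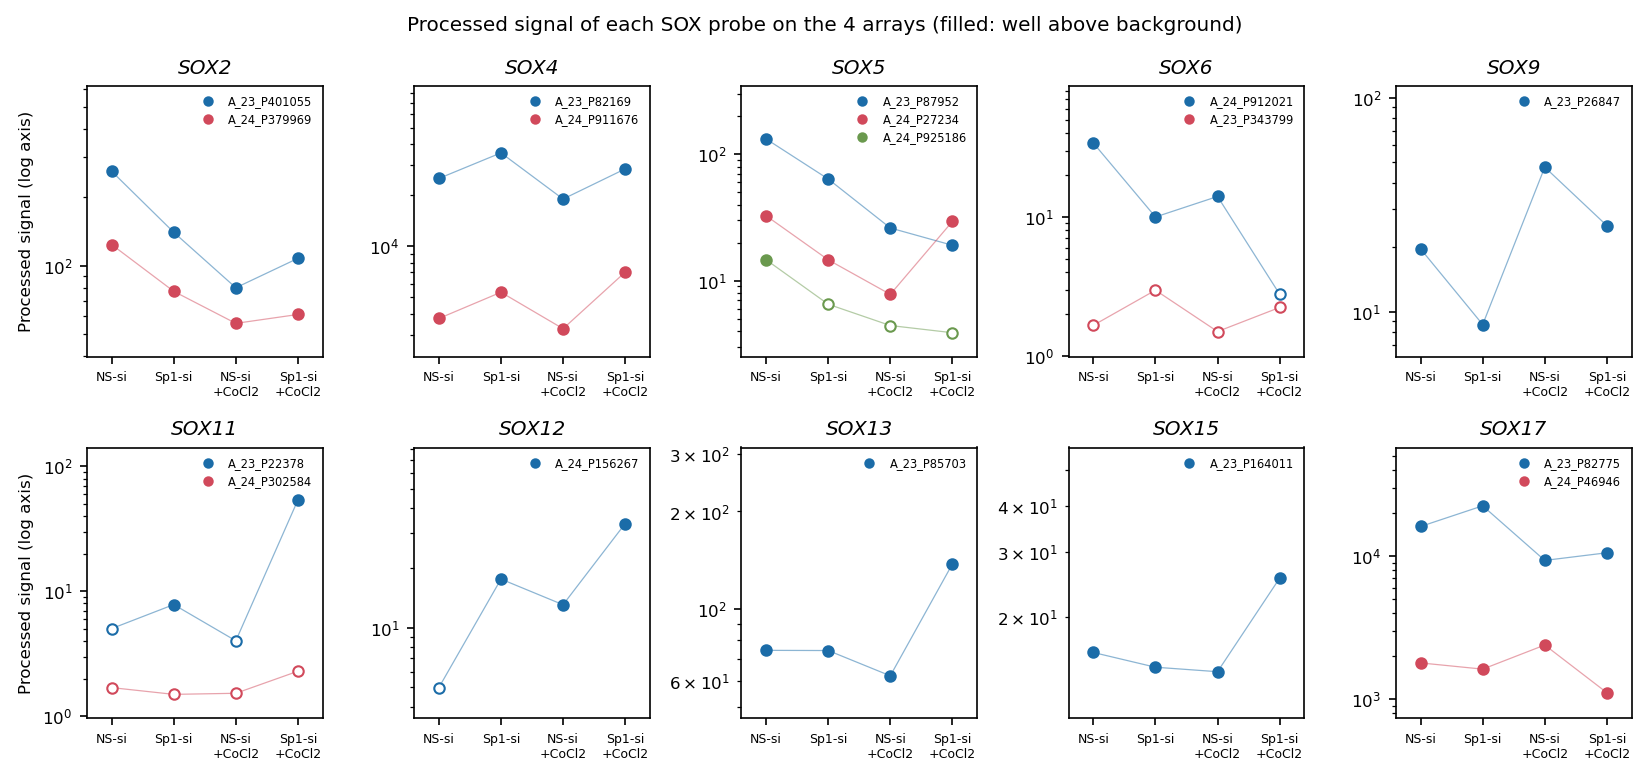
Processed signal (log10 axis) of the SOX probes on the 4 arrays, 1 panel per gene and 1 line per probe, with open symbols where a probe was not well above background. SOX9 was higher after CoCl2 in both siRNA groups (19.6 to 47.3 and 8.70 to 25.2), whereas the lines of the SOX5 probes and of the SOX17 probes part from each other.

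SOX2, which sustains pluripotency with POU5F1, was lower after CoCl2 and lower after Sp1 silencing. The probe A_23_P401055 read 260 in NS-si cells, 140 after Sp1 silencing, 79.9 after CoCl2 and 108 after both. The NS-si cells without CoCl2 were the highest and the other 3 conditions were lower. The log2 CoCl2 ratio was -1.48 ± 0.11 (SD between spots) in NS-si cells and -0.61 ± 0.10 after silencing. Sp1-si stood to NS-si at -0.84 ± 0.09 without CoCl2 and at 0.03 ± 0.11 with it, or 0.43 with it without scaling between arrays. The other SOX2 probe, A_24_P379969, read 124, 77.0, 55.7 and 60.9 in the same order. Its ratios had the same sign in 3 of the 4 pairs, with CoCl2 ratios of -0.93 ± 0.12 and -0.56 ± 0.13 and a silencing ratio of -0.63 ± 0.11, and the ratio of Sp1-si → CoCl2 to NS-si → CoCl2 was -0.27 ± 0.14, or 0.13 without scaling between arrays. After normexp correction the CoCl2 ratio in NS-si cells was -1.06 on A_23_P401055 and -0.49 on A_24_P379969, and the silencing ratio with CoCl2 on A_23_P401055 was -0.11.

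SOX5, a D group factor that cooperates with SOX6 and SOX9 in cartilage, was lower after CoCl2 in NS-si cells on each of its measured probes. The probe A_23_P87952 read 132 in NS-si cells, 63.7 after Sp1 silencing, 26.1 after CoCl2 and 19.1 after both. Signals were lower with CoCl2 in both siRNA groups and lower in Sp1-si cells with and without CoCl2. The CoCl2 ratios were -2.11 ± 0.16 and -1.97 ± 0.22, which differ by 0.15 ± 0.28, less than the SD between spots, or by 0.60 without scaling. They lie at percentiles 0.224 and 0.424 of all measured probes. Sp1-si stood to NS-si at -0.998 ± 0.11, just short of 2-fold, without and -0.85 ± 0.25 with CoCl2. After normexp correction the CoCl2 ratios were -0.98 and -0.88.

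The other SOX5 probes did not repeat that pattern in full. The probe A_24_P27234 read 32.6 in NS-si cells, 14.6 after Sp1 silencing, 7.79 after CoCl2 and 29.4 after both. It was high in NS-si cells and after both treatments, whereas A_23_P87952 was lowest after both. Its CoCl2 ratio was -1.84 ± 0.41 in NS-si cells and 0.78 ± 0.26 after silencing, a difference of 2.62 ± 0.49, and after normexp correction these were -0.35, 0.11 and 0.46. Between the siRNA groups with CoCl2 it stood at 1.52 ± 0.40, a gap of 2.37 to A_23_P87952 in the same pair, and normexp background correction moved that ratio to 0.18. The third probe, A_24_P925186, was well above background in NS-si cells alone, at 14.6, and was at least 1.81-fold lower in NS-si → CoCl2 and at least 2.10-fold lower in Sp1-si cells. Among all probes measured on the 4 arrays, 1.05% had a difference of the CoCl2 ratios of at least 1 and 4.87% of at most -1.

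**Figure D2:**
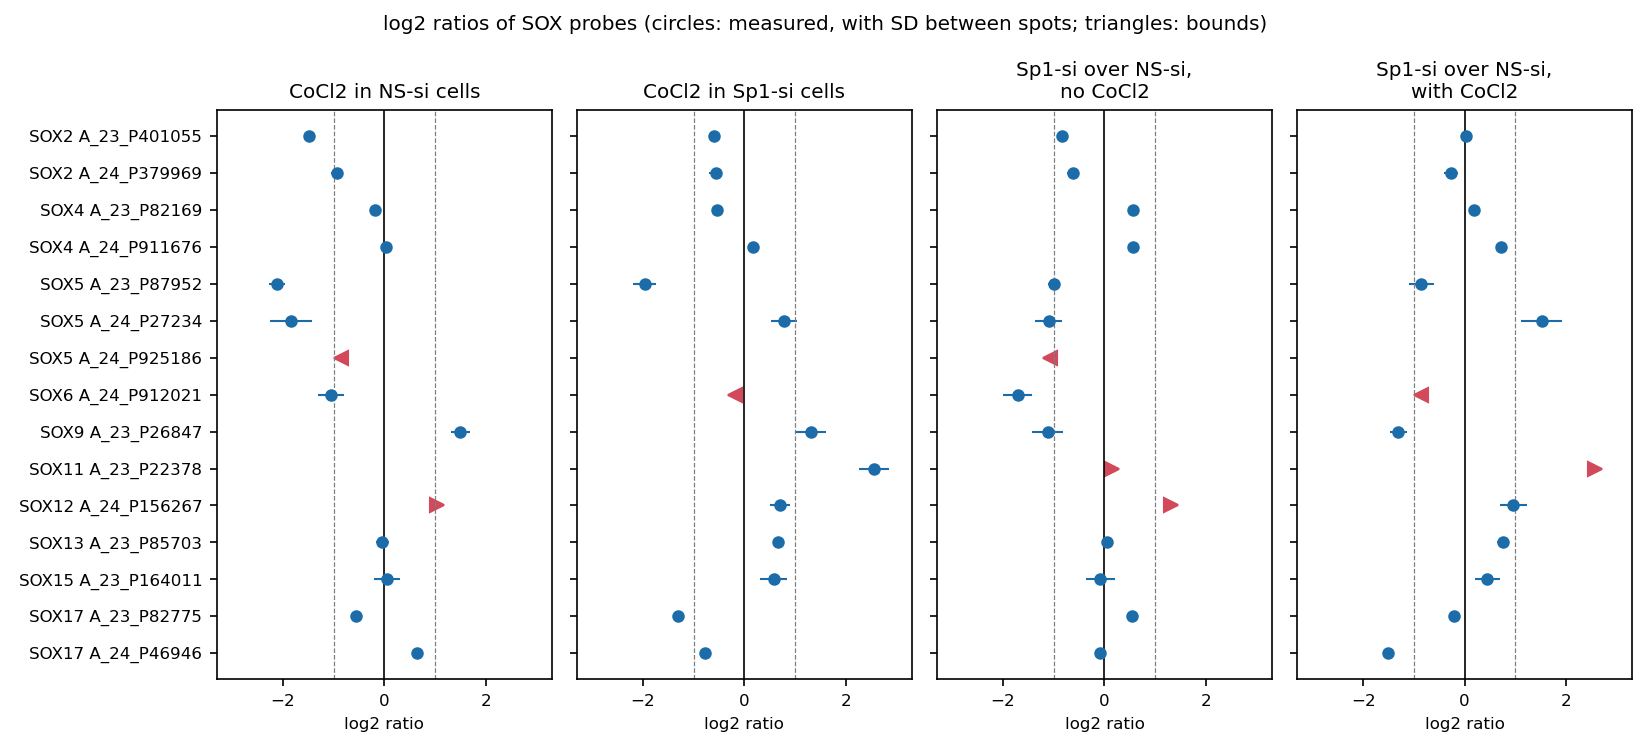
Log2 ratios of the SOX probes in the 4 pairs of arrays, with bars for the SD between spots and triangles for bounds. The SOX5 probes sit at -2.11 and -1.84 for CoCl2 in NS-si cells and at -1.97 and 0.78 in Sp1-si cells.

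SOX6, the partner of SOX5 in chondrocytes, was lower after each treatment on the 1 probe that was well above background. The probe A_24_P912021 read 33.9 in NS-si, 9.99 in Sp1-si and 14.0 in NS-si → CoCl2 cells, and in Sp1-si → CoCl2 cells it was not well above background, at 2.78. Each treatment alone gave a lower signal, and the combination had the lowest reading, which was not well above background. The ratios were -1.05 ± 0.25 for CoCl2 in NS-si cells and -1.71 ± 0.29 for Sp1 silencing. In the presence of CoCl2 the Sp1-si signal was at least 1.81-fold lower, and CoCl2 in Sp1-si cells gave at least a 1.14-fold lower signal. Without scaling the first bound was -0.46 on the log2 scale and the second was lost. The lowest signal well above background on the Sp1-si → CoCl2 array, 10.2, lies above the Sp1-si signal of 9.99. After normexp correction the measured ratios were -0.17 and -0.39. The other SOX6 probe was well above background on no array.

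SOX13, the D group member first known as an islet cell antigen, was highest where silencing and CoCl2 were combined. It read 74.5 in NS-si cells, 74.4 after Sp1 silencing, 62.2 after CoCl2 and 138 after both. The first 3 values lie close together. The CoCl2 ratio was -0.04 ± 0.12 in NS-si cells and 0.66 ± 0.10 after silencing, a difference of 0.70 ± 0.16. After normexp correction these were 0.05, 0.35 and 0.29.

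SOX9, the cartilage and progenitor factor, was higher after CoCl2 and lower after Sp1 silencing. Its 1 probe read 19.6 in NS-si cells, 8.70 after Sp1 silencing, 47.3 after CoCl2 and 25.2 after both. CoCl2 gave the higher signal within each siRNA group, and NS-si the higher signal at each exposure. The CoCl2 ratios of 1.49 ± 0.19 and 1.31 ± 0.30 lie at percentiles 98.5 and 98.2 and differ by -0.18 ± 0.35, less than the SD between spots, or by 0.27 without scaling. Sp1-si stood to NS-si at -1.12 ± 0.31 without and -1.30 ± 0.17 with CoCl2, the latter -0.91 without scaling. All 4 signals are dim, and after normexp correction the 4 ratios were 0.54, 0.08, -0.21 and -0.66.

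**Figure D3:**
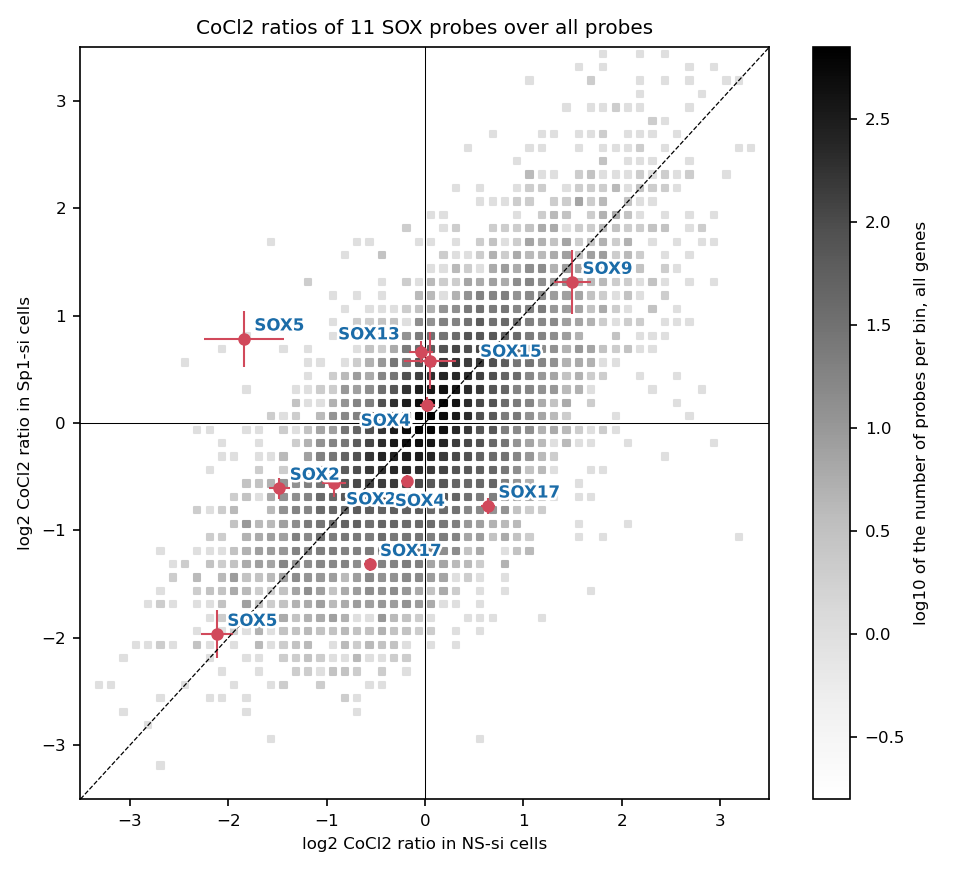
Log2 CoCl2 ratio in NS-si cells (horizontal axis) against that in Sp1-si cells (vertical axis), with all measured probes as binned density and the SOX probes as labelled points. SOX9 and the SOX5 probe A_23_P87952 lie near the diagonal, at 1.49 and 1.31 and at -2.11 and -1.97, while the SOX5 probe A_24_P27234 and the SOX17 probe A_24_P46946 lie far from it.

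In the C group, SOX4 was well above background on all 4 arrays, and SOX11 and SOX12 were so on some. SOX4 was higher in Sp1-si cells on both probes. The probe A_23_P82169 read 25058 in NS-si cells, 35458 after Sp1 silencing, 18940 after CoCl2 and 28515 after both, and A_24_P911676 read 3744, 5344, 3257 and 7016. Both were higher in Sp1-si cells than NS-si cells with and without CoCl2. Without CoCl2 the ratios were 0.55 ± 0.06 and 0.57 ± 0.07. With CoCl2 the probes parted, at 0.19 and 0.71. The CoCl2 ratios of A_24_P911676 were 0.02 in NS-si, or -0.20 without scaling, and 0.17 in Sp1-si cells, and those of A_23_P82169 were -0.18 and -0.54.

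SOX11, a neural progenitor factor, was well above background in Sp1-si cells, at 7.84, and in Sp1-si → CoCl2 cells, at 53.9, on the probe A_23_P22378. It was not well above background in either NS-si condition, at 5.04 and 4.02. The CoCl2 ratio in Sp1-si cells was 2.56 ± 0.30, at percentile 99.8 of measured probes. With CoCl2 the signal was at least 5.91-fold higher in Sp1-si cells than NS-si cells. The other SOX11 probe was well above background on no array, and normexp correction moved the CoCl2 ratio of the first probe in Sp1-si cells to 0.44 and the silencing ratio with CoCl2 to 0.34.

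SOX12, the weakest activator of the C group, was not well above background in NS-si cells, at 4.99. It read 17.6 in Sp1-si, 13.1 in NS-si → CoCl2 and 33.5 in Sp1-si → CoCl2 cells, with the highest of the 3 measured signals after both. It was at least 2.47-fold higher in Sp1-si and at least 2.06-fold higher in NS-si → CoCl2 than in NS-si cells, and the second bound is under 2-fold without scaling (0.82 on the log2 scale). The CoCl2 ratio in Sp1-si cells was 0.70 ± 0.20. After normexp correction the ratios to NS-si cells were 0.33 for Sp1 silencing and 0.36 for CoCl2. The CoCl2 ratio in Sp1-si cells turned to -0.02 and the silencing ratio with CoCl2 went from 0.96 to -0.05, so normexp did not keep the combination as the highest.

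SOX17, the F group endoderm factor, was lower after CoCl2 in Sp1-si cells on both probes. The probe A_23_P82775 read 16167 in NS-si cells, 22542 after Sp1 silencing, 9362 after CoCl2 and 10587 after both. The probe A_24_P46946 read 1798, 1627, 2398 and 1114 in the same order. The CoCl2 ratio in NS-si cells had opposite signs on the probes, at -0.56 ± 0.06 and 0.64 ± 0.07, a gap of 1.20. In Sp1-si cells both were negative, at -1.31 ± 0.06 and -0.77 ± 0.07. Between the siRNA groups with CoCl2 the probes stood at -0.22 ± 0.06, or 0.18 without scaling, and at -1.50 ± 0.07. These gaps are wider than the SD between spots.

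SOX15 had its highest processed signal where silencing and CoCl2 were combined, an order that normexp correction did not keep. It read 16.0 in NS-si cells, 14.6 after Sp1 silencing, 14.2 after CoCl2 and 25.5 after both. The first 3 signals lie close together. The CoCl2 ratio in Sp1-si cells was 0.58 ± 0.26 and the ratio to NS-si → CoCl2 cells was 0.45 ± 0.24, and after normexp correction these were -0.14 and -0.29.

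**Figure D4:**
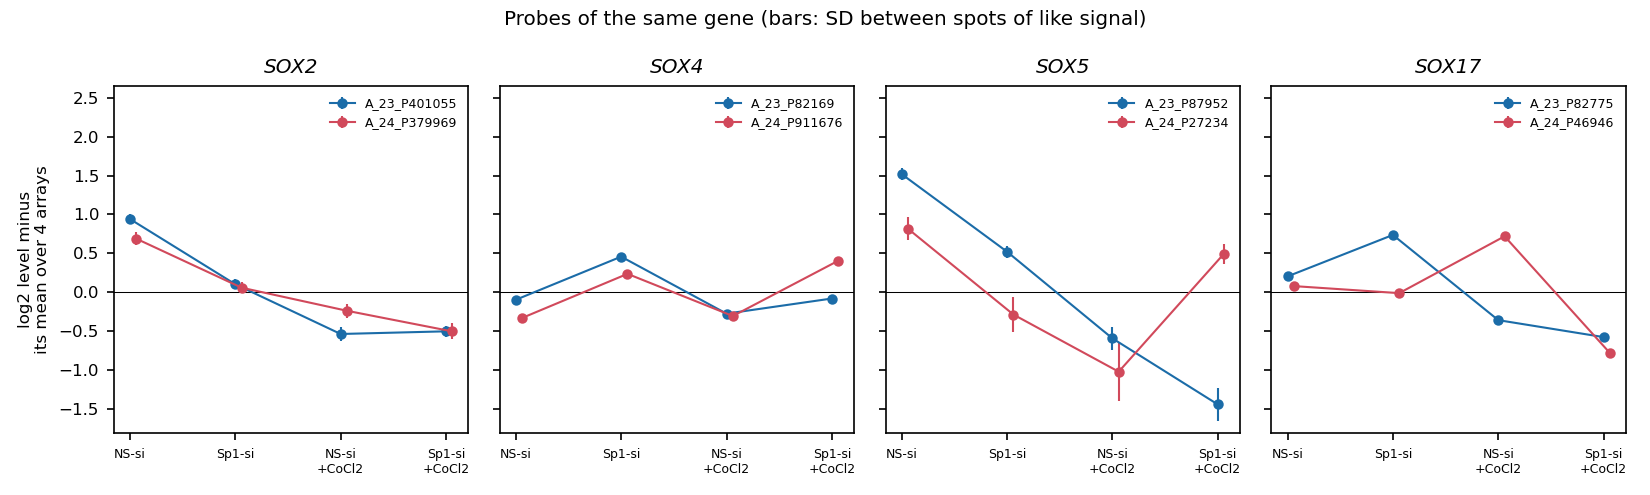
Log2 level of each probe minus its own mean over the 4 arrays (vertical axis) by condition (horizontal axis) for the SOX genes with more than 1 probe measured throughout, with bars for the SD between spots. The SOX2 probes follow each other, while the SOX5 probes part after both treatments and the SOX17 probes part after Sp1 silencing and after CoCl2.

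The remaining SOX genes of the array formed a list of 9, taken by the probe with the highest mean signal, of which 8 were well above background on all 4 arrays. No gene of the list was past 2-fold for CoCl2 in either siRNA group or for Sp1 silencing alone. With CoCl2, 4 of the 8 were at least 2-fold lower in Sp1-si cells than NS-si cells (background 9.64%), namely SOX8 at -1.73, SOX3 at -1.32, SOX1 at -1.11 and SOX18 at -1.11, and without scaling these were -1.34, -0.93, -0.71 and -0.72. SOX8, an E group relative of SOX9, read 2972 in NS-si cells, 2335 after Sp1 silencing, 4986 after CoCl2 and 1971 after both. It was highest in NS-si → CoCl2 and lowest in Sp1-si → CoCl2 cells, whereas its second probe read 576, 723, 750 and 1609 and was highest in the latter. The list median was 0.65 for CoCl2 in NS-si cells and -0.10 after silencing, or 0.13 for the latter without scaling, and -0.81 between the siRNA groups with CoCl2, against 0.02, -0.01 and -0.06 over all probes.

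**Figure D5:**
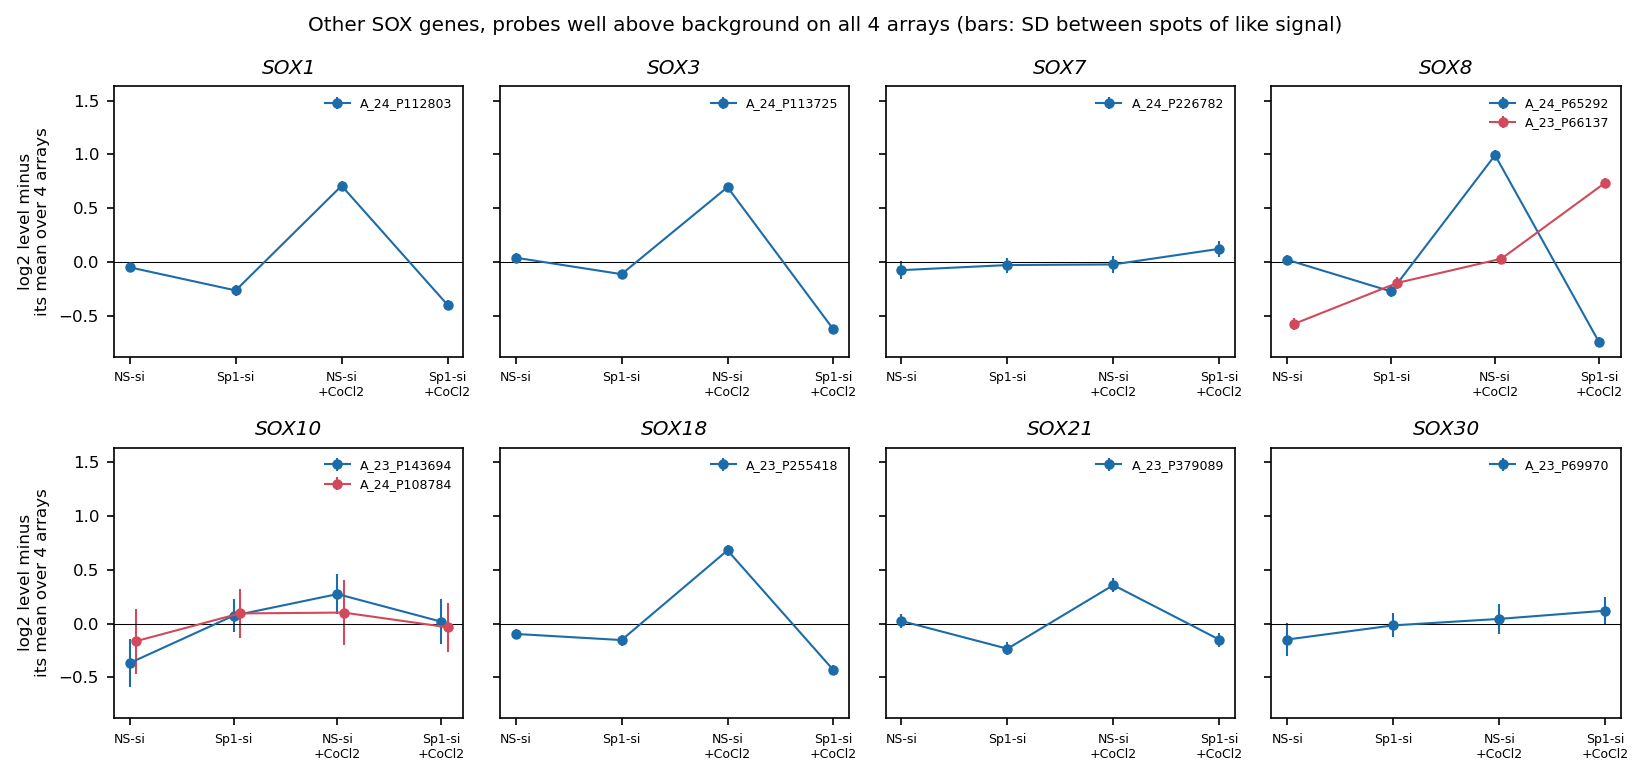
Log2 level of each probe minus its own mean over the 4 arrays (vertical axis) by condition (horizontal axis) for the 8 measured SOX genes outside the 10 members, with bars for the SD between spots. SOX1, SOX3, SOX18 and the SOX8 probe A_24_P65292 peak after CoCl2 in NS-si cells, and the SOX8 probe A_23_P66137 peaks after both treatments. Probes not well above background on all 4 arrays, among them the other probes of SOX1 and SOX3, are not drawn.

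Factors that partner SOX proteins formed a list of 14, of which 12 were well above background on at least 1 array. For CoCl2 in NS-si cells 2 were at least 2-fold higher (background 4.53%) and 0 lower (background 4.34%). POU5F1, the partner of SOX2 in pluripotent cells, read 8872 in NS-si cells, 6683 after Sp1 silencing, 24090 after CoCl2 and 17684 after both. It was higher with CoCl2 in both siRNA groups, and its 4 probes had CoCl2 ratios of 1.67 to 2.03 in NS-si cells and 1.18 to 1.58 after silencing. POU5F1 has near-identical pseudogenes, so its signal is uncertain. KLF4, a reprogramming factor, stood at 1.41 and 1.37. For Sp1 silencing, 4 partners were at least 2-fold higher (background 5.5%) and 0 lower (background 5.88%), namely LEF1 at 5.04, PAX6 at 2.39, POU2F1 at 1.83 and GLI2 at 1.68, and with CoCl2 they stood at 4.68, 2.58, 1.19 and 2.08. The other probes of LEF1 and POU2F1 were well above background on no array, and the other GLI2 probe on 1 array. After normexp correction GLI2 stood at 0.46 without and 0.23 with CoCl2 and PAX6 at 1.16 and 0.89, so that GLI2 was under 2-fold in both pairs and PAX6 in the latter. The list median was 0.09 for CoCl2 in NS-si cells, or -0.14 without scaling, and 0.23 for Sp1 silencing.

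Genes known as SOX targets formed a list of 22, of which 18 were well above background on at least 1 array. For CoCl2 in NS-si cells 1 was at least 2-fold higher (background 4.53%), COL11A2, a cartilage collagen, at 1.24, or 0.93 after normexp correction. In that pair 1 was lower (background 4.34%), FOXA2, an endoderm factor, at -1.26, with its other probes at -1.24 and -0.33. For Sp1 silencing 4 were at least 2-fold higher (background 5.5%) and 0 lower (background 5.88%), with AXIN2, an inhibitor and target of Wnt signalling, at 4.82, TUBB3, a neuronal tubulin, at 3.17 and PTGDS, a prostaglandin D synthase, at 1.62. The other AXIN2 probe stood at 2.80 without and 1.34 with CoCl2, the other TUBB3 probe stood at 1.02 and 1.45, and the fourth gene, LIN28B, is a bound. With CoCl2 AXIN2, TUBB3 and PTGDS stood at 4.56, 3.20 and 1.85, and NES, an intermediate filament of progenitors, at -1.02, or -0.63 without scaling and -0.77 after normexp correction, both under 2-fold. The list median was -0.01 for Sp1 silencing and 0.16 for CoCl2 in NS-si cells, or -0.06 for the latter without scaling.

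Among probes measured on all 4 arrays, the SOX5 probe A_23_P87952 had the widest range of the members' first probes, 2.96 on the log2 scale. The genes nearest to its 4 mean-centred log2 values, among 14282 candidates, were PCDH20, a protocadherin, at a Euclidean distance of 0.314, HOXB3, a homeobox factor, at 0.326, and PGBD4 at 0.435. HOXB3 read 404 in NS-si cells, 167 after Sp1 silencing, 89.2 after CoCl2 and 49.8 after both. Like the SOX5 probe A_23_P87952, by which it was picked, it was lower with each treatment and lowest with both. The SOX5 probe A_24_P27234 did not share this order, at 7.79 after CoCl2 and 29.4 after both. With 4 arrays the likeness is a description of these arrays.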

How the data were processed

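RNA of OVSAYO cells was measured on 4 one-colour Agilent arrays, 1 per condition. The intensities, as the authors deposited them, are the processed signals, with background subtracted, and the raw median signals of each spot, written by Agilent Feature Extraction 10.5.1.1, per the file headers, with no normalization between arrays. The authors also deposited a signal table, which equals the processed signal times 1 constant per array. Calls of outlier spots and of spots well above background were used as deposited.

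Log2 processed signals of non-control spots without outlier flags, minus the 75th percentile of each array, were averaged per probe. The call of well above background needed at least 50% of the kept spots. Symbols came from RefSeq accessions. The normexp alternative (limma 3.58.1 in R 4.3.3, offset 50) used median signals, a choice made after seeing the data, because the files used here hold no mean signals. Other steps used Python 3.11.15, numpy 2.4.6, pandas 2.3.3 and matplotlib 3.10.9. The ratio and the 2-fold call were tested on simulated data, with changes past 2-fold planted in probes of middle signal. No change was planted in probes as dim as most SOX probes, so the simulation does not cover them.

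With 1 array per condition no test or p-value was computed, and precision is limited by the number of arrays. The members and gene lists were chosen with earlier results of these data known. All probes of the members are named. Of the lists of other SOX genes, partner factors and SOX targets, genes past 2-fold in a pair with both sides well above background are named, at most 4 by size in a pair, each by the probe with the highest mean log2 signal. LIN28B, a bound, was named after its values were seen. The likeness rule took the 3 nearest genes. Alternatives were other scalings, the deposited table, the mean over probes, folds of 1.5 and 3, filters on dim spots, outlier spots kept and normexp.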

Additional observations from a re-analysis of the deposited data

Results flagged for a closer look

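For the SOX5 probe A_24_P27234 the CoCl2 log2 ratio was -1.84 in NS-si cells and 0.78 after silencing, a difference of 2.62, and the arrays of the siRNA groups moved in opposite directions. After normexp correction these were -0.35, 0.11 and 0.46, and the signal after CoCl2 in NS-si cells was 7.79, near the lowest signal well above background on that array (6.93). For the SOX17 probe A_24_P46946 it was 0.64 in NS-si cells and -0.77 after silencing, a difference of -1.41, again with opposite directions, and the difference was -0.96 without scaling. Neither difference was tested, as each condition has 1 array. The SOX5 probe A_23_P87952 and the SOX17 probe A_23_P82775 had CoCl2 ratios below 0 in both siRNA groups.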

How the results depend on the processing

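No paired analysis was possible because each condition has 1 array. The counts of SOX probes past 2-fold moved with several settings, and no ratio past 2-fold changed sign under any of them. For CoCl2 in NS-si cells, the 2 higher probes became 1 without scaling, with quantile normalization, with the deposited table and when only probes well above background on all 4 arrays were kept, and 0 with normexp or a 3-fold threshold. The 4 lower probes became 1 with normexp and 2 at 3-fold. For CoCl2 in Sp1-si cells, the 2 higher probes became 0 with normexp, 5 at 1.5-fold, 1 at 3-fold and 1 with the all-array filter, and the 2 lower probes became 1 with normexp, 4 at 1.5-fold and 1 at 3-fold. For Sp1-si over NS-si, the 1 higher probe became 0 with normexp, at 3-fold and with the filter, and the 4 lower probes became 0 with normexp, 7 at 1.5-fold, 1 at 3-fold and 2 with the filter. For the same pair with CoCl2, the 2 higher probes became 5 without scaling, 0 with normexp, 5 at 1.5-fold, 1 at 3-fold and 1 with the filter, and the 2 lower probes became 1 without scaling, 1 with normexp, 4 at 1.5-fold and 0 at 3-fold. Of 68 single-probe values, 39 moved by more than the SD between spots with normexp and 40 of 67 without scaling, while 12 moved with median scaling, 11 with quantile normalization, 6 with the deposited table and 0 when outlier spots were kept. With the mean over the probes of a gene, 16 of 20 values moved. Normexp, which adds an offset of 50, pulls ratios of dim probes towards 0 by construction. Without scaling the median of all probes shifts by -0.23, 0.22, -0.05 and 0.40 in the 4 pairs. Signal over background limits SOX5, SOX6, SOX9, SOX11 and SOX12, each of which lies near the lowest signals well above background (6.72 to 10.2) on at least 1 array.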

Other observations

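Across all SOX probes measured on the 4 arrays, 5 of 21 had a CoCl2 ratio above 0 in NS-si and below 0 in Sp1-si cells together with a signal at least 2-fold lower in Sp1-si → CoCl2 than in NS-si → CoCl2 cells. These were probes of SOX1, SOX3, SOX8, SOX17 and SOX18, and 3.57% of 30234 probes had that profile. The other probes of SOX1 and SOX3 were well above background on no array, and those of SOX8 and SOX17 did not have the profile. Without scaling between arrays the count was 2 of 21, against 0.936%. The profile was chosen after the values were seen and has no test.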
